A study of Mus musculus with 9 samples.

Results

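The 10 genes described here, B2m, Tap1, Tap2, Tapbp, Tapbpl, Erap1, Psmb8, Psmb9, Wdfy4 and Sec22b, encode proteins of class I peptide loading, the immunoproteasome and cross-presentation. They were chosen by name for those functions, with earlier results of these data known, and all 10 are among the 39179 genes of the count table. Their RNA was measured by bulk RNA-seq in 3 dendritic cell (DC) subsets sorted from the spleens of C57BL/6J mice at steady state, with no treatment in any group, from a study of how these subsets respond to STING ligands. The subsets are conventional DC type 1 (cDC1, CD8 positive), conventional DC type 2 (cDC2, CD8 negative) and plasmacytoid DC (pDC), with 3 libraries each. The study's mice were 6 to 12 weeks old, and how many mice went into each library is not given in the sources used here. Libraries with the same replicate number carry the same date code in all subsets. Nothing else says that the replicates came from separate animals, so the p-values measure the spread between these libraries.

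MHC class I molecules show peptides from inside the cell to CD8+ T cells. Proteasomes cut proteins into peptides, the TAP transporter carries these into the endoplasmic reticulum, and chaperones load them onto a heavy chain paired with beta-2-microglobulin. In cross-presentation, DC also load peptides from engulfed material by this route or by one through endosomes, and cDC1 are known as the subset most specialised for it in mouse spleen. Several of these genes lie in the MHC and respond to interferons.

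Library totals ran from 15806597 to 32453789 counts, and replicate 3 had the lowest total in each subset. The sort labels were checked against defining markers, in TMM-normalised CPM (counts scaled to the effective library size). Xcr1 was at 936 ± 9.33 CPM (SD, n = 3) in cDC1, 49.7 ± 15.7 in cDC2 and 4.64 ± 3.86 in pDC. Itgam was at 235 ± 13.5 in cDC2, against 11.6 ± 4.16 in cDC1 and 11.3 ± 4.0 in pDC. Of the short sequence windows of the Itgam transcripts, 65.2% also occur in another gene, so the level of Itgam is uncertain. Siglech was at 4752 ± 394 in pDC, against 27.1 ± 6.27 and 17.0 ± 5.59. The summed 7 cDC1 markers (3902 to 4328 in cDC1, at most 699.7 elsewhere) and the 7 pDC markers (12453 to 13245 in pDC, at most 351 elsewhere) were highest under their own label. The 6 cDC2 markers summed to 1993 to 2147 CPM in cDC2 but 2440.3 to 2614 in pDC, where Cd4 and Cd209a were also high.

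Markers of other cells differed between subsets, and their part in the results was not tested. No marker of these lists was at 0 in a whole subset. The 5 T cell markers summed to 12.4 to 16.8 CPM in cDC1, 28.9 to 37.9 in cDC2 and 10.8 to 13.1 in pDC, and the 5 natural killer cell markers to 128 to 158, 83.8 to 154 and 23.97 to 55.6. The 5 B cell markers summed to 56.4 to 59.1, 60.4 to 73.3 and 79.1 to 99.7. The 3 of them that were tested went both ways, with log2 fold changes from -5.44 to 3.37 for pDC against cDC1. The 6 macrophage and monocyte markers summed to 128 to 207 in cDC1, 698 to 895 in cDC2 and 1988 to 2881 in pDC, of which Ly6c2 alone made 2226 ± 424 in pDC. The 5 plasma cell markers summed to 148 to 174, 168 to 200.3 and 1550.5 to 2399.5. They too went both ways, with log2 fold changes from -3.61 to 5.46 for pDC against cDC2. Neutrophil markers stayed at 44.1 or less and erythroid markers at 60.6 or less in each library. In bulk samples, fewer cells of a type and less RNA per cell cannot be told apart.

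The transporter subunits Tap1 and Tap2, the immunoproteasome subunits Psmb8 and Psmb9, and Wdfy4 were higher in cDC1 than in either other subset. Tapbp was highest in pDC, Tapbpl was lowest in cDC2, and B2m was higher in pDC than in cDC1. By edgeR's quasi-likelihood test over 13819 genes, at an adjusted p of 0.05, 8 of the 10 genes differed among the subsets, where 56.0% of all genes tested did. B2m and Sec22b were the ones that did not pass (adjusted p = 0.0961 and 0.0893).

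Between cDC2 and cDC1, 7 of the 10 genes were called, all 7 lower in cDC2 and 0 higher. Over all genes tested, 24.4% were called in this comparison, 12.7% as higher and 11.7% as lower in cDC2. Between pDC and cDC1, 8 were called, 2 higher and 6 lower in pDC, against 48.6% of all genes, 24.3% higher and 24.4% lower. Between pDC and cDC2, 4 were called, 3 higher and 1 lower in pDC, against 45.8% of all genes, 22.5% higher and 23.3% lower, a share close to that of all genes. When the replicate number was added as a block, calls rose over all genes as well, to 35.6%, 58.6% and 55.5% in these comparisons. The calls among the 10 genes were then 9 for cDC2 against cDC1 (1 higher, B2m, and 8 lower), 8 for pDC against cDC1 (2 higher and 6 lower) and 7 for pDC against cDC2 (4 higher and 3 lower). The median log2 fold change of the 10 was -0.79, -0.65 and -0.00014 in these comparisons, against 0.03, 0.02 and -0.01 over all genes tested. The comparisons share libraries, so they are not independent of each other.

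**Figure D1:**
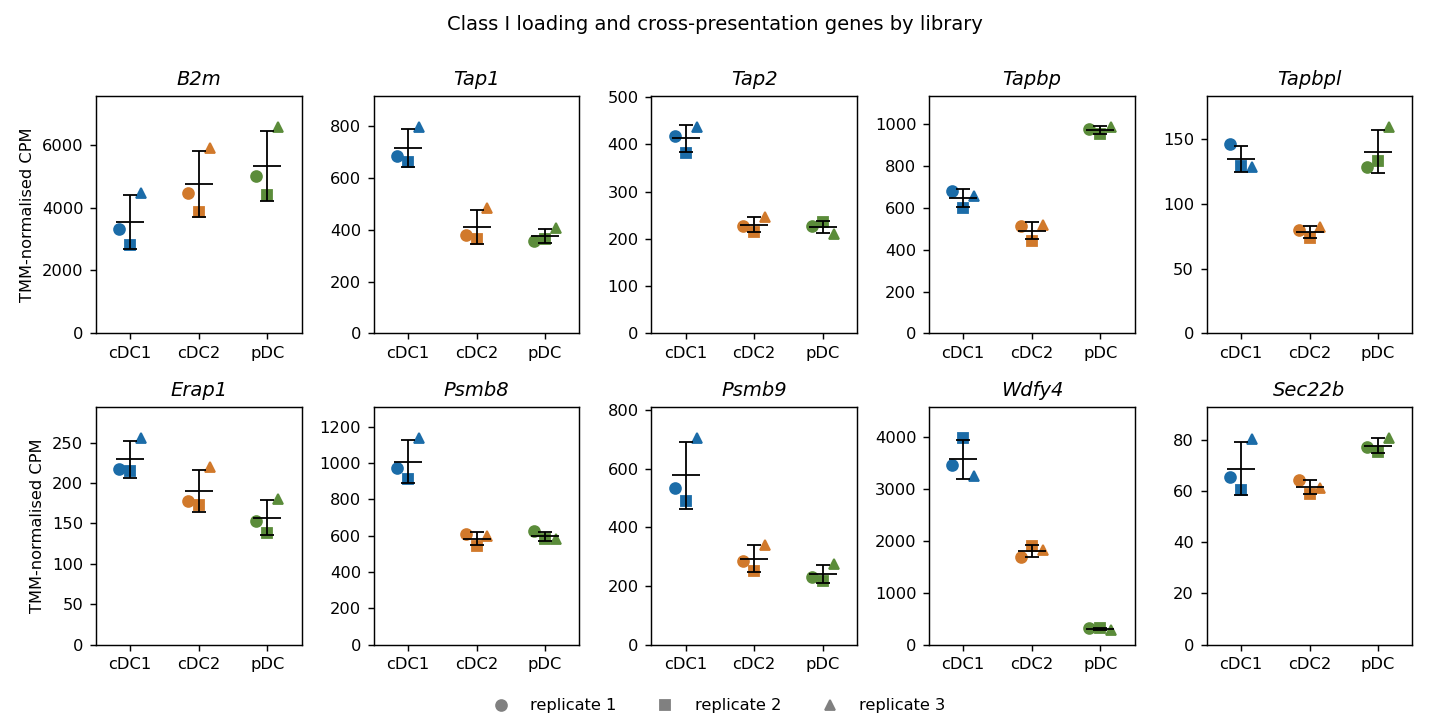
Levels of the 10 genes in each library, as TMM-normalised CPM on a linear axis from 0 that differs by gene, with a symbol for each replicate number, and black bars for the mean and SD of 3 libraries. Tap1, Tap2, Psmb8, Psmb9 and Wdfy4 sit higher in all cDC1 libraries than in any other library, Tapbp sits highest in pDC, and B2m overlaps between subsets, with replicate 3 highest in each.

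B2m encodes beta-2-microglobulin, the light chain shared by class I molecules. It lies on chromosome 2, from 122147686 to 122153083 on the plus strand (GRCm38). Among 13683 tested genes with an exon length it ranked 12 in cDC1, 8 in cDC2 and 3 in pDC by CPM per kb. B2m was at 3330.5, 2800.5 and 4481 CPM in replicates 1, 2 and 3 of cDC1, at 4473, 3855 and 5903 in cDC2, and at 5003, 4394 and 6582 in pDC. Replicate 3 was highest and replicate 2 lowest in each subset, and the subsets overlapped. Within each replicate number, however, the order was the same, with cDC1 lowest and pDC highest. The log2 fold change was 0.42 ± 0.22 (SE) for cDC2 against cDC1 (adjusted p = 0.204), 0.59 ± 0.22 for pDC against cDC1 (adjusted p = 0.0470) and 0.17 ± 0.22 for pDC against cDC2 (adjusted p = 0.573).

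When replicate number entered as a block, all of these B2m differences passed, at adjusted p = 6.70e-05, 3.26e-06 and 0.00778, with log2 fold changes of 0.43, 0.60 and 0.17. In the same-numbered pairs, pDC stood above cDC1 by 0.55 to 0.65 on the log2 scale. The adjusted p of that difference without the block lay near the threshold and missed it in 8 of 18 alternatives, with the direction kept in all 18. It missed it without cDC1 replicate 1 (log2 fold change 0.55, adjusted p = 0.125), cDC1 replicate 2 (0.45, 0.149), cDC2 replicate 1 (0.59, 0.0651), pDC replicate 1 (0.63, 0.0710) or pDC replicate 3 (0.41, 0.152). Replicate 3 of B2m lay above the mean of replicates 1 and 2 by 0.55 on the log2 scale in cDC1, 0.51 in cDC2 and 0.49 in pDC. Sums of the 6 stress and dissociation genes were also highest in replicate 3, at 4814 CPM in cDC1 (2327 and 1536 in replicates 1 and 2), 4880.3 in cDC2 (2442 and 2791) and 3303 in pDC (1244 and 1299.8), and their part in the result was not tested. Of these genes, 3 of 6 were lower in pDC than in cDC1 and 3 of 6 lower than in cDC2 (5 of 6 in each with the block), with median log2 fold changes of -2.07 and -2.34. Of all genes tested, 24.4% and 23.3% were lower in these comparisons, and 29.4% and 28.4% with the block.

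The RefSeq promoter table (GRCm38.p6) held 8 of the 10 genes. Tap2 and Tapbpl were not matched. The sequences of B2m and Wdfy4, the genes with the highest level and the largest difference here, are shown as far as they lie outside annotated exons. They run 5′ to 3′ on the strand of the gene, at chr2:122147437-122147685 (plus) and chr14:33185067-33185316 (minus, inside the longer GENCODE model of Wdfy4), with an interferon-stimulated response element motif (ISRE, GAAA, any 2 bases, GAAA) in capitals. Motifs were searched on both strands of the 300 bases of each table entry, 250 before the start and 50 from it on.
B2m: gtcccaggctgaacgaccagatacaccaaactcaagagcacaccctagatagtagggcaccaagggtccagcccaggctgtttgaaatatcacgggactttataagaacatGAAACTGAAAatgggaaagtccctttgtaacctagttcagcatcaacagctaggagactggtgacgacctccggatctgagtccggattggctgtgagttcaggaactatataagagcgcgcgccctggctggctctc
Wdfy4: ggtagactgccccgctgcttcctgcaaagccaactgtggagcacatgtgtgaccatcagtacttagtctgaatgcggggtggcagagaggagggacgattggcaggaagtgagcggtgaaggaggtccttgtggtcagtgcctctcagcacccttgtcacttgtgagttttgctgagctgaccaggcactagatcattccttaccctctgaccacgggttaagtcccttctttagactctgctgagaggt
The B2m match lies 139 to 130 bases before the start. Of 32851 promoters of the same length, 3.44% hold this motif. Among the 8 gene promoters it is found in B2m and Erap1, where it is on the minus strand and spans the start. A gamma-activated sequence (TTC, any 3 bases, GAA), which 8.30% of promoters hold, is found in Psmb8 from 97 to 89 bases before the start. In Psmb8 and Erap1, all 250 bases before the RefSeq start lie in annotated exons. GGAA, any 2 bases, GAAA (the Ets-IRF composite element, 2.72% of promoters) and the cAMP response element TGACGTCA (1.79%) are in none of the 8 windows. A match is a run of letters and was not tested for binding.

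Tap1 and Tap2 encode the subunits of the transporter that moves peptides into the endoplasmic reticulum. Tap1 was at 687, 663 and 799.6 CPM in cDC1, at 379, 365 and 486 in cDC2, and at 357, 365 and 408 in pDC. All cDC1 libraries lay above the others, and cDC2 and pDC overlapped. Its log2 fold change was -0.80 ± 0.13 for cDC2 against cDC1 (adjusted p = 0.00153) and -0.93 ± 0.13 for pDC against cDC1 (adjusted p = 0.000253), so that cDC1 held 1.75 and 1.90 times as much. For pDC against cDC2 it was -0.12 ± 0.13 (adjusted p = 0.484).

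Tap2 was at 418, 382 and 438 CPM in cDC1, at 228, 215.5 and 246 in cDC2, and at 227, 236 and 211 in pDC. The pattern was that of Tap1, with cDC1 apart and the other subsets overlapping. The log2 fold change was -0.84 ± 0.10 for cDC2 (adjusted p = 0.000175) and -0.88 ± 0.10 for pDC (adjusted p = 4.70e-05), both against cDC1, and -0.03 ± 0.10 for pDC against cDC2 (adjusted p = 0.808). Per exon length, Tap1 RNA stood at 1.20 times Tap2 RNA in cDC1, 1.22 times in cDC2 and 1.16 times in pDC. Exon length here is the union of all annotated exons of a gene, so the absolute size of such ratios is approximate. The single libraries ran from 1.07 to 1.36, and a difference among the subsets was not detected (exact permutation test over the libraries, adjusted p over 5 ratios = 0.739).

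Tapasin (Tapbp) bridges TAP and the empty class I molecule and edits its peptides, and TAPBPR (Tapbpl) is a related editor that works outside that complex. Tapbp was at 683, 601 and 656 CPM in cDC1, at 514, 443 and 519 in cDC2, and at 980.4, 953 and 989.9 in pDC. No subsets overlapped, and pDC stood highest. Against cDC1, pDC had a log2 fold change of 0.59 ± 0.09 (adjusted p = 0.000528), with 0.99 ± 0.09 for pDC against cDC2 (adjusted p = 1.90e-05) and -0.39 ± 0.09 for cDC2 against cDC1 (adjusted p = 0.0119). The last call was lost without cDC1 replicate 1 (-0.36, adjusted p = 0.0555). Of the 75-base windows of the Tapbp transcripts, 18.6% also occur in other genes, the most among the 10, and an exon of Zbtb22 overlaps it by 149 bases on the same strand.

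Tapbpl was at 146, 129 and 128 CPM in cDC1, at 79.6, 73.2 and 81.9 in cDC2, and at 128, 133 and 159.5 in pDC. Here cDC2 stood apart below, and cDC1 and pDC overlapped. Its log2 fold change was -0.78 ± 0.11 for cDC2 against cDC1 (adjusted p = 0.000830), 0.84 ± 0.11 for pDC against cDC2 (adjusted p = 0.000219) and 0.06 ± 0.11 for pDC against cDC1 (adjusted p = 0.691). Per exon length, Tapbp RNA stood at 3.12 times Tapbpl RNA in cDC1, 4.07 times in cDC2 and 4.52 times in pDC (exact permutation test, adjusted p = 0.0179). All cDC1 libraries, from 3.03 to 3.31, lay below the rest, which ran from 3.92 to 4.96.

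Erap1 trims peptides in the endoplasmic reticulum to the length that class I molecules hold. It lies on chromosome 13, from 74639568 to 74693201, and 834 of its 7280 exon bases overlap Cast on the opposite strand. The library kit keeps strand, but the strand setting of the counting is not given in the sources used here. Erap1 was at 218, 215 and 256 CPM in cDC1, at 178, 173 and 220.0 in cDC2, and at 152, 138 and 181 in pDC. The cDC1 libraries all lay above the pDC libraries, and cDC2 overlapped with both. It was lower in pDC than in cDC1, with a log2 fold change of -0.55 ± 0.14 (adjusted p = 0.00870). For cDC2 against cDC1 the value was -0.27 ± 0.14 (adjusted p = 0.203), and for pDC against cDC2 it was -0.28 ± 0.14 (adjusted p = 0.135). Both passed with the replicate block (adjusted p = 0.00664 and 0.00392), and all 3 same-numbered pairs had the order cDC1, cDC2, pDC from high to low.

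**Figure D2:**
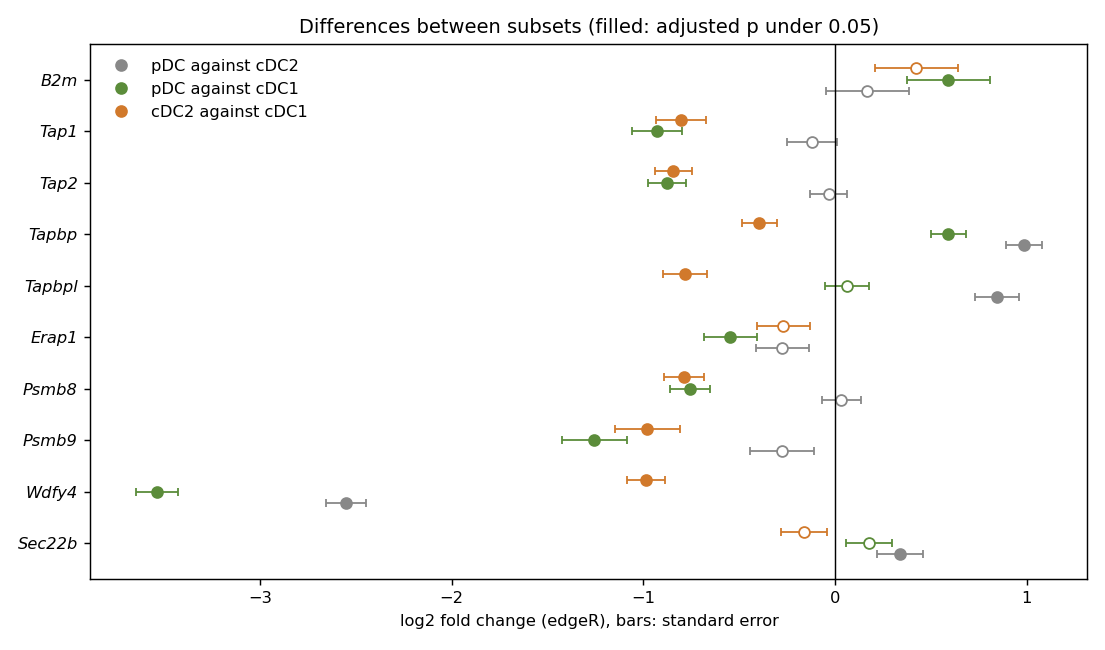
Log2 fold changes between subsets from edgeR (x axis) for the 10 genes, with standard errors as bars, filled points for an adjusted p under 0.05 and open points for the others. The cDC2 against cDC1 points of 7 genes lie at or below -0.39, Wdfy4 reaches -3.54 in pDC against cDC1, and Tapbp and Tapbpl stand at 0.99 and 0.84 in pDC against cDC2.

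Psmb8 and Psmb9 encode beta-5i and beta-1i, the immunoproteasome subunits that take the places of Psmb5 and Psmb6. Psmb8 was at 971, 909 and 1139 CPM in cDC1, at 606, 541 and 599.7 in cDC2, and at 625, 582 and 579.7 in pDC. Every cDC1 library was above the others, which overlapped. The log2 fold change was -0.79 ± 0.10 for cDC2 (adjusted p = 0.000408) and -0.76 ± 0.10 for pDC (adjusted p = 0.000207) against cDC1, and 0.03 ± 0.10 for pDC against cDC2 (adjusted p = 0.824).

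Psmb9 was at 534, 491 and 706 CPM in cDC1, at 286, 251 and 342 in cDC2, and at 231, 218 and 276 in pDC. Of the 10 genes, only Wdfy4 differed more from cDC1 than Psmb9 did, in cDC2 and in pDC. All cDC1 libraries lay above the rest, and cDC2 and pDC overlapped. It was 1.97 times lower in cDC2 than in cDC1 (log2 fold change -0.98 ± 0.17, adjusted p = 0.00208) and 2.39 times lower in pDC (-1.26 ± 0.17, adjusted p = 0.000178). For pDC against cDC2 the value was -0.28 ± 0.17 (adjusted p = 0.207), which passed with the replicate block (adjusted p = 0.00428).

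Ratios of each immunoproteasome subunit to the constitutive one it replaces were taken within each library, per exon length. The ratio of Psmb9 to Psmb6 was 2.01, 1.92 and 2.25 in cDC1, 1.24, 1.23 and 1.41 in cDC2, and 0.983, 0.973 and 1.12 in pDC. The subsets did not overlap, and the means of 2.06, 1.29 and 1.02 differed (exact permutation test, adjusted p = 0.00893, of which the raw p of 0.00357 is the smallest this design gives). The ratio of Psmb10 to Psmb7, beta-2i over its constitutive counterpart, had the opposite order. It was 1.17, 1.09 and 1.30 in cDC1, 2.14, 2.09 and 2.39 in cDC2, and 3.19, 4.49 and 3.18 in pDC (adjusted p = 0.00893 in the exact permutation test). Psmb8 to Psmb5 differed least, at 3.45 in cDC1, 2.93 in cDC2 and 3.37 in pDC (exact permutation test, adjusted p = 0.0402). That call was lost in 7 of 9 fits that left out a library, and 36.8% of the windows of Psmb5 also occur in other genes. With the replicate block, where 0.0278 is the smallest p, the adjusted p of these ratios and of Tapbp to Tapbpl was 0.0694 in the exact permutation test. Relative to its counterpart, beta-1i was highest in cDC1 and beta-2i in pDC.

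**Figure D3:**
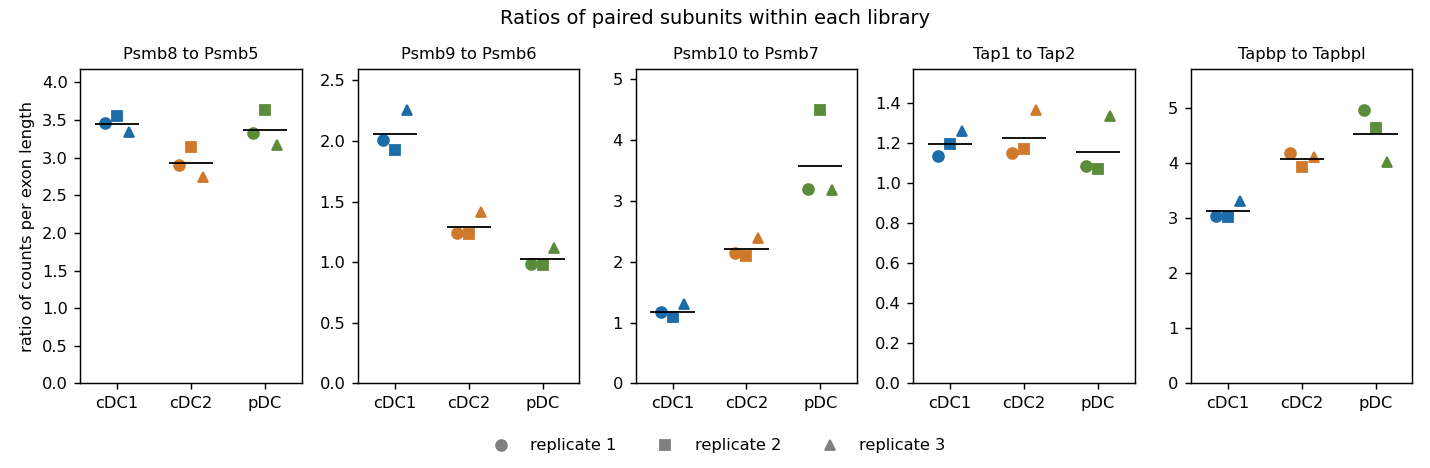
Ratio of 2 genes in each library, each as counts per exon length (y axis, linear from 0), by subset, with a symbol for each replicate number and a line at the geometric mean. Psmb9 to Psmb6 falls from 2.06 in cDC1 to 1.02 in pDC, Psmb10 to Psmb7 runs from 1.18 to 3.57 the other way, and Tap1 to Tap2 stays between 1.07 and 1.36.

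Of 7 other catalytic subunits and activators of the proteasome, 4 were lower in cDC2 than in cDC1, 5 were lower and 1 higher in pDC than in cDC1, and 1 was higher and 1 lower in pDC than in cDC2. Over all genes tested, 24.4%, 48.6% and 45.8% were called in these comparisons. Psmb5 was at 77.7 ± 11.6 CPM in cDC1 against 53.1 ± 6.50 in cDC2 and 47.1 ± 3.84 in pDC, and fell by 0.55 and 0.72 on the log2 scale (adjusted p = 0.0188 and 0.00217). Psmb7 fell by 0.77 in cDC2 and 0.97 in pDC (adjusted p = 0.00990 and 0.00134). Psmb6 did not pass (-0.30 and -0.24, adjusted p = 0.0810 and 0.102), except with the replicate block (adjusted p = 0.00747 and 0.0132). Psmb10 was the member of this list that was higher in pDC, at 194 ± 22.3 CPM against 129 ± 28.9 in cDC1 (log2 fold change 0.59 ± 0.17, adjusted p = 0.0167). It was also above cDC2 (0.47 ± 0.17, adjusted p = 0.0459). Psme1 and Psme2, which form the interferon-inducible PA28 cap, were lower than in cDC1 in cDC2 (-0.74 and -0.47, adjusted p = 0.000313 and 0.0215) and in pDC (-0.67 and -0.64, adjusted p = 0.000237 and 0.00193). Of the windows of Psme2, 22.9% also occur in another gene, so its level is uncertain. Psme3, the nuclear activator PA28 gamma, was lower in pDC than in cDC1 (-0.67, adjusted p = 0.00299) and than in cDC2 (-0.42, adjusted p = 0.0320).

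Among 12 genes of the other 20S subunits and assembly, none was higher in cDC2 or pDC than in cDC1. Lower were 4 in cDC2 and 5 in pDC, where 11.7% and 24.4% of all genes were lower. With the replicate block these counts were 10 and 11, where 17.1% and 29.4% of all genes were lower. Pomp, which assembles new proteasomes, was at 448, 437 and 524 CPM in cDC1, 261, 250.1 and 294 in cDC2, and 235, 216.02 and 247 in pDC (log2 fold change -0.81 ± 0.11 and -1.01 ± 0.11, adjusted p = 0.000488 and 4.09e-05). Psma3 was lower by 0.53 in cDC2 and 1.03 in pDC on the log2 scale (adjusted p = 0.0471 and 0.000741). However, 14.3% of the windows of Psma3 also occur in other genes, so its level is uncertain. Psma1 was lower in pDC than in cDC1 (-0.995 ± 0.14, adjusted p = 0.000254) and than in cDC2 (-0.78 ± 0.14, adjusted p = 0.00127).

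Wdfy4 encodes a BEACH domain protein that cDC1 need to cross-present cell-associated antigen. It lies on chromosome 14, from 32959547 to 33185508 on the minus strand, and none of its windows occurs in another gene. Wdfy4 was at 3474, 3990.4 and 3257 CPM in cDC1, at 1680.3, 1903 and 1833 in cDC2, and at 318, 317 and 287 in pDC. No subsets overlapped. The step from cDC1 to cDC2 was 1.98-fold (log2 fold change -0.99 ± 0.10, adjusted p = 8.22e-05), and that from cDC1 to pDC was 11.6-fold (-3.54 ± 0.11, adjusted p = 3.35e-08). The difference between cDC2 and pDC was 5.87-fold (-2.55 ± 0.10, adjusted p = 1.26e-07). Of all genes tested, 21.0% differed more between cDC2 and cDC1 and 9.26% more between pDC and cDC1. In CPM per kb Wdfy4 ranked 170 of 13683 in cDC1, 319 in cDC2 and 1940 in pDC.

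Of 8 other BEACH or WDFY family genes, 7 were tested. Wdfy3 also stood in the order cDC1, cDC2, pDC, at 39.3 ± 12.2, 21.2 ± 2.20 and 4.91 ± 0.337 CPM, with log2 fold changes of -0.89 ± 0.22 for cDC2 and -3.00 ± 0.24 for pDC against cDC1 (adjusted p = 0.0148 and 5.21e-06). Lyst, the gene mutated in Chediak-Higashi syndrome, was higher in cDC2 (404 ± 68.6 CPM) than in cDC1 (150.0 ± 44.4, adjusted p = 0.00172) and pDC (153 ± 27.5, adjusted p = 0.000870). Nbeal2 was lower than in cDC1 in cDC2 (-0.84, adjusted p = 0.00347) and pDC (-1.01, adjusted p = 0.000505). In all, 2 were higher and 2 lower in cDC2 than in cDC1, 1 was higher and 3 lower in pDC than in cDC1, and 1 was higher and 4 lower in pDC than in cDC2. In the same comparisons, 24.4%, 48.6% and 45.8% of all genes tested were called.

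Sec22b is a SNARE of the route between endoplasmic reticulum and Golgi, and has been placed in the delivery of endoplasmic reticulum components to phagosomes. It lies on chromosome 3, from 97901190 to 97923276. Sec22b was at 65.7, 60.3 and 80.4 CPM in cDC1, at 64.4, 58.9 and 61.1 in cDC2, and at 77.3, 75.3 and 80.8 in pDC. All pDC libraries lay above the cDC2 libraries, while cDC1 overlapped with both. Its log2 fold change was 0.34 ± 0.12 for pDC against cDC2 (adjusted p = 0.0429), a call that was lost in 10 of 18 alternatives, where the change ran from 0.30 to 0.37 and the adjusted p from 0.0118 to 0.120. The other values were -0.16 ± 0.12 for cDC2 and 0.18 ± 0.12 for pDC against cDC1 (adjusted p = 0.403 and 0.254). Per kb, Sec22b was the lowest of the 10 in each subset, at 17.3 ± 2.63, 15.5 ± 0.701 and 19.6 ± 0.702 CPM per kb.

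Of its 5 SNARE relatives, 1 was lower in cDC2 than in cDC1, 2 rose in pDC over cDC1 and 3 in pDC over cDC2. Calls over all genes tested were 24.4%, 48.6% and 45.8%, so these counts lie near the general share. Stx5a, a Golgi syntaxin, was at 78.2 ± 2.86, 59.4 ± 2.74 and 95.0 ± 5.61 CPM in cDC1, cDC2 and pDC, with pDC above cDC2 by 0.68 on the log2 scale (adjusted p = 0.000269). Bet1 was higher in pDC than in cDC1 (1.00 ± 0.23, adjusted p = 0.00524) and than in cDC2 (0.97 ± 0.23, adjusted p = 0.00642).

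The class I heavy chains and class I like genes, which pair with B2m, were nearly all higher in pDC. Of 11, 10 were higher and 1 lower in pDC than in cDC1, and the same counts held against cDC2. Over all genes tested, 24.3% were higher and 24.4% lower in pDC than in cDC1. Against cDC2 these shares were 22.5% and 23.3%. H2-Q7 was at 205 ± 26.7 CPM in cDC1 against 183 ± 18.6 in cDC2 and 874 ± 60.8 in pDC (log2 fold change 2.09 ± 0.13 against cDC1, adjusted p = 9.48e-07), and 17.0% of its windows occur in other genes. That share is 40.0% for H2-T22, 21.1% for H2-Q6, 20.7% for H2-Q4 and 14.2% for Cd1d1, so the counts of these genes are uncertain. H2-T24 was at 9.73 ± 3.06, 23.8 ± 2.79 and 106 ± 16.5 (3.43 ± 0.24 in pDC against cDC1, adjusted p = 2.28e-06). Mr1, which presents vitamin B metabolites, was at 2.79 ± 0.265, 4.78 ± 1.04 and 17.7 ± 0.940 CPM (2.66 ± 0.22, adjusted p = 6.31e-06). Cd1d1, which presents lipids, was the one that fell, at 139 ± 3.94 in cDC1 against 43.9 ± 3.28 in cDC2 and 15.7 ± 2.86 in pDC (-3.14 ± 0.15, adjusted p = 1.85e-07). Between cDC2 and cDC1, 2 were higher and 1 lower, and with the replicate block 4 and 2. The shares of all genes called there were 24.4% and, with the block, 35.6%.

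Of 13 genes of folding and trimming in the endoplasmic reticulum and cytosol, 6 were lower and 1 higher in cDC2 than in cDC1, 5 higher and 3 lower in pDC than in cDC1, and 8 higher and 1 lower in pDC than in cDC2. All genes tested were called at 24.4%, 48.6% and 45.8% in these comparisons. Pdia3 and Calr, the oxidoreductase and chaperone of the loading complex, were highest in cDC1. Pdia3 was at 1667, 1698 and 1826 CPM in cDC1, 691, 707 and 809 in cDC2, and 1017, 1006 and 1195 in pDC, with log2 fold changes against cDC1 of -1.23 ± 0.10 in cDC2 and -0.69 ± 0.10 in pDC (adjusted p = 2.66e-05 and 0.000337). Calr fell by 0.93 in cDC2 and 0.55 in pDC (adjusted p = 0.000114 and 0.00126). Uggt1, which checks glycoprotein folding, was highest in pDC, at 523 ± 38.5 CPM against 325 ± 13.8 in cDC1 and 239 ± 14.1 in cDC2 (adjusted p = 0.000191 and 7.10e-06). Signal peptide peptidase (Hm13) was also higher in pDC (1.18 ± 0.11 against cDC1, adjusted p = 1.45e-05). Lnpep, the endosomal trimming peptidase also known as IRAP, was lowest in cDC1, at 55.1 ± 2.69 CPM against 82.5 ± 19.7 in cDC2 and 94.3 ± 3.06 in pDC (adjusted p = 0.0207 and 0.00223).

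Of 15 other genes of cross-presentation, 6 were lower and 3 higher in cDC2 than in cDC1, 8 higher and 5 lower in pDC than in cDC1, and 9 higher and 3 lower in pDC than in cDC2. The shares called over all genes tested were 24.4%, 48.6% and 45.8%. Clec9a, the receptor for dead cells and a marker used above to check cDC1, was at 624 ± 24.2 CPM in cDC1 against 50.2 ± 8.93 in cDC2 and 252 ± 10.96 in pDC. Cybb, the NADPH oxidase subunit, ran from 125 ± 25.7 in cDC1 over 649 ± 51.3 in cDC2 to 2109 ± 82.3 in pDC (4.08 ± 0.16 for pDC against cDC1, adjusted p = 6.89e-08). Rac2, which helps assemble that oxidase, had the same order (299 ± 48.4, 645 ± 53.5 and 1683 ± 259 CPM, with 2.49 ± 0.15 for pDC against cDC1, adjusted p = 9.43e-07). Rab43 was highest in cDC1, but 74.2% of its windows occur in another gene, so its level is uncertain.

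Transporter, immunoproteasome and editor genes share a region of chromosome 17. Psmb9, Tap1, Psmb8 and Tap2 lie within 34335 bases, from 34181987 to 34216321, and Tapbp ends 252694 bases before them. Tap1 and Psmb9 are divergent, their RefSeq starts are 225 bases apart, and their annotated exons overlap by 212 bases on opposite strands, which is 3.87% of the exon length of Tap1 and 5.79% of that of Psmb9. All 4 genes of the cluster were lower in cDC2 and in pDC than in cDC1. Tapbp was lower in cDC2 as well (log2 fold change -0.39), but higher in pDC. Wdfy4 and Tapbpl, on chromosomes 14 and 6, were also lower in cDC2.

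**Figure D4:**
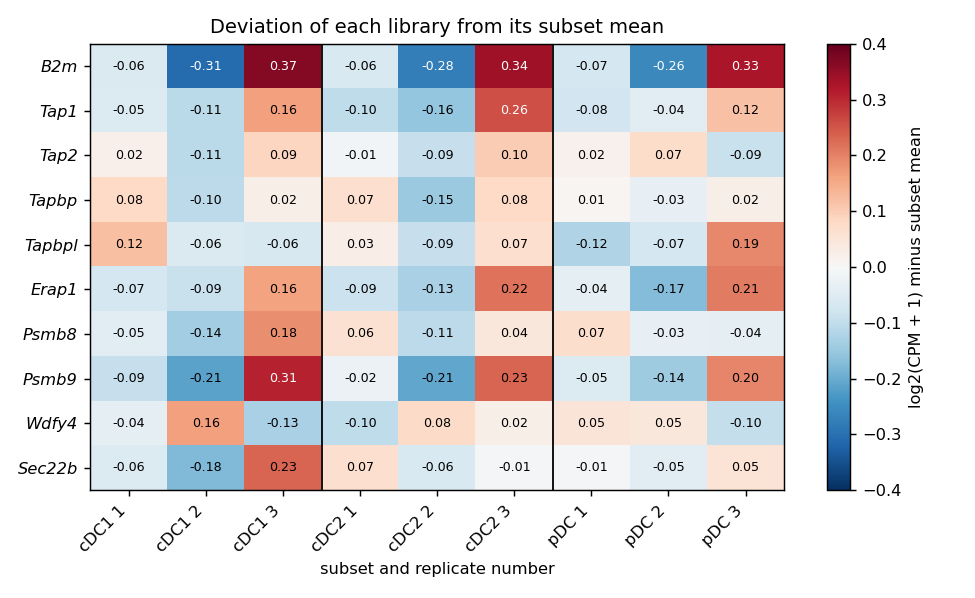
Deviation of each library from the mean of its subset for the 10 genes, as log2(CPM + 1), with a column for each subset and replicate number. B2m, Tap1, Erap1 and Psmb9 are highest in replicate 3 of each subset, with B2m at 0.37, 0.34 and 0.33, and Wdfy4 is highest in replicate 3 of 0 subsets.

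B2m, Tap1, Erap1 and Psmb9 were highest in replicate 3 in all 3 subsets, Tap2, Tapbp, Tapbpl and Sec22b in 2, Psmb8 in 1 and Wdfy4 in 0. Leaving out replicate 3 of every subset, an alternative chosen after seeing the data, gave 9, 9 and 5 calls in the 3 comparisons in place of 7, 8 and 4, while calls over all genes rose to 37.7%, 63.0% and 59.8%. B2m then passed for cDC2 against cDC1 (log2 fold change 0.41, adjusted p = 0.0478) and Erap1 passed in all comparisons, while Tapbpl for pDC against cDC1 was -0.11 (adjusted p = 0.358).

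Genes most like each of the 10 were taken by Pearson correlation of log2(CPM + 1) over the 9 libraries, as a description, and they share libraries and subset differences. Psmb9 was most like Pomp (r = 0.992) and Prdx1 (0.988), and Tap1 was most like Pqlc2 (0.990) and Psmb9 (0.987). Psmb8 was most like Ppp1r11 (0.995) and Sumo3 (0.985), and Tap2 was most like Ttc7b (0.987) and Atp6v0a2 (0.986). Wdfy4 was most like Prr5l (0.999) and Actb (0.998). Actb itself was at 7412 ± 194 CPM in cDC1 against 5606 ± 119 in cDC2 and 2749 ± 46.5 in pDC. B2m was most like Hgsnat (0.984) and Syngr2 (0.976), Tapbp was most like Creld1 (0.988) and Ctse (0.987), and Tapbpl was most like Pvr (0.988) and Cpne2 (0.983). For Erap1 these were Prdx3 (0.991) and Fundc1 (0.989), and for Sec22b they were Mrps17 (0.970) and Psmf1 (0.966).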

How the data were processed

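RNA of sorted subsets was sequenced as single reads of 75 bases from stranded mRNA libraries. The authors deposited 1 table of raw counts per gene for the 9 libraries. The submitters' processing notes name STAR, SAMtools, featureCounts, MultiQC and mm10; settings, annotation and use of strand are not given in the sources used here. The paper names Degust without a statistical method.

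Genes were kept by filterByExpr (minimum count 10), scaled by TMM and tested in R 4.3.3 with edgeR 4.0.16, with the subset as the only term and Benjamini-Hochberg adjustment over 13819 genes. CPM per kb and the ratios used exon lengths of GENCODE M21 on GRCm38, as the union of all annotated exons of a gene. Such a length can differ from that of the transcripts present, so levels of different genes compare only roughly. Ratios were tested by exact permutation over the libraries, adjusted over 5 ratios. Same-numbered libraries, which carry the same date code, deviated together (mean r = 0.403 over 9 pairs, 0.266 to 0.543). Only the fits and tests with the replicate block take the numbers as pairs. The main counts and p-values do not use the pairing. No replicates agreed within sampling noise (chi-square of 10.6 or more per degree of freedom).

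The 10 genes and the lists were chosen with earlier results of these data known. Other genes are named where they have the largest called changes of their list (at most 4 a comparison), for the catalytic proteasome subunits and activators always, and as the 2 genes most like each of the 10. Alternatives used the replicate block, DESeq2 1.42.0, limma-voom (limma 3.58.1), other scalings, filters, thresholds and libraries. Figures were drawn with matplotlib 3.10.9.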

Additional observations from a re-analysis of the deposited data

How the results depend on the processing

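Of 540 recomputed fold changes of the 10 genes, 501 kept direction and side of the threshold, 19 lost and 10 gained the call, and 10 changed sign. None of those that changed sign was called at first. With single libraries left out, the log2 fold change for pDC against cDC2 ran from -0.011 to 0.35 for B2m, -0.20 to 0.0089 for Tap1, -0.077 to 0.013 for Tap2 (0.011 without cDC2 replicate 3), -0.018 to 0.063 for Psmb8 (-0.0012 without pDC replicate 1) and -0.0071 to 0.10 for Psmb6. That of Tapbpl for pDC against cDC1 ran from -0.039 to 0.12 (-0.011 without cDC1 replicate 3), and that of Psmb10 for cDC2 against cDC1 from -0.017 to 0.28. Without replicate 3 of all subsets, which was chosen after seeing the data, Tap2 was 0.059 and Tapbpl -0.11. The cause was not tested.

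Requiring also an absolute change of 1 (log2), which by construction lets fewer genes pass, left 0 calls between cDC2 and cDC1, 2 between pDC and cDC1, 1 between pDC and cDC2 and 2 among the subsets. The shares of all genes with this threshold, or with single libraries left out, are not given here, so these counts are a description only. Leaving out single libraries gave counts of 6 to 7, 7 to 8, 3 to 4 and 7 to 10. The spread of the subset means of the log2 ratios was 0.19 to 0.29 for Psmb8 to Psmb5, 0.94 to 1.07 for Psmb9 to Psmb6, 1.43 to 1.68 for Psmb10 to Psmb7, 0.03 to 0.18 for Tap1 to Tap2 and 0.47 to 0.62 for Tapbp to Tapbpl. Psmb8 to Psmb5 lost its call in 7 of these 9 fits.

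Scaling by library size alone moved the median of all genes by 0.110 (log2) for cDC2 against cDC1, where 2204 genes were then higher and 1287 lower, against 1760 and 1610. The direction of no fold change of the 10 genes turned under another scaling.

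With the replicate block, the count for pDC against cDC2 was 7 in place of 4 (55.5% of all genes in place of 45.8%). The 4 ratios with a call kept their spreads of 0.24 (Psmb8 to Psmb5), 1.01 (Psmb9 to Psmb6), 1.59 (Psmb10 to Psmb7) and 0.53 (Tapbp to Tapbpl), but their adjusted p became 0.0694 in the exact permutation test; the pairing leaves fewer arrangements. Beside the calls given with the block above, it changed no other call of the 10 genes. Depth limited low genes most in replicate 3, where a floor of 3 counts is up to 0.203 CPM. This floor covers counting error only.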

Other observations

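Of 9 transcriptional regulators of class I genes and of cDC1, 2 were higher and 1 lower in cDC2 than in cDC1, 3 higher and 3 lower in pDC than in cDC1, and 3 higher and 2 lower in pDC than in cDC2 (5 and 3 with the replicate block). Among all genes tested, 24.4%, 48.6% and 45.8% were called in these comparisons (55.5% in the last with the block). Irf8 was at 2556 ± 221 CPM in cDC1 against 269 ± 48.0 in cDC2 and 4244 ± 274 in pDC (edgeR adjusted p = 1.06e-06 for cDC2 and 0.00127 for pDC against cDC1). Irf1 was higher in pDC, at 239 ± 33.2 CPM against 141 ± 18.0 in cDC1 (adjusted p = 0.000937) and 153 ± 9.51 in cDC2 (adjusted p = 0.00273). Batf3 was at 91.4 ± 3.80, 66.1 ± 4.93 and 1.499 ± 0.826 CPM, with a log2 fold change of -5.87 ± 0.33 for pDC against cDC1 (adjusted p = 5.78e-07). The subunits of the RFX complex did not move together. Of the windows of Rfx5 and Rfxank, 20.2% and 26.6% also occur in other genes, so their levels are uncertain. Rfx5 was highest in cDC2 (79.6 ± 3.92 CPM, against 53.9 ± 0.410 in cDC1 and 42.6 ± 5.34 in pDC), Rfxank was highest in pDC (28.4 ± 1.70, against 11.7 ± 1.08 and 16.9 ± 0.301), and Rfxap was lower in pDC (16.2 ± 5.15) than in cDC1 (32.8 ± 5.71, adjusted p = 0.00623).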
